A study of Homo sapiens with 6 samples.

Results

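The sites described here are places where glucocorticoid receptor (GR) peaks were called in some, but not all, of the 3 peak lists of dexamethasone-treated GR cells. Peaks overlapping by at least 1 bp over the 6 dexamethasone lists (3 of the GR cell and 3 of the MR/GR cell) were merged into 43713 sites. Of these, 18518 (42.4%) had a peak in exactly 1 or 2 GR-cell lists, whatever the MR/GR-cell lists held, and are called irreproducible sites below. The 22935 sites with a peak in all 3 GR-cell lists are called reproducible sites, and 2260 sites had no GR-cell peak. Irreproducible sites thus made up 44.7% of the 41453 sites with any GR-cell peak. The sites were chosen by the peak calls of the 3 GR-cell dexamethasone lists, so everything that comes from those lists is given as description without a test. Only the MR/GR-cell lists and the vehicle lists, which had no part in the choice, were tested.

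Both lines were stable derivatives of the human osteosarcoma line U-2OS. The MR/GR cell carries the mineralocorticoid receptor (MR) as well as GR, and the GR cell is its counterpart without the added MR, going by the names and the series title. Each was given dexamethasone at 100 nM for 2 hr or the solvent DMSO as vehicle, and chromatin was immunoprecipitated with an anti-GR antibody. The MR/GR cell therefore differs from the GR cell by the added receptor and by being another derived line, which cannot be told apart here. The sources used here do not give how the receptors were introduced. The input DNA of the GR cell is labelled as dexamethasone-treated and that of the MR/GR cell as vehicle-treated. Peak positions carry no expression values, so the labelled lines could not be checked against markers.

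GR is a ligand-activated transcription factor. Without hormone it is held largely in the cytoplasm by chaperones; with dexamethasone, a synthetic glucocorticoid, it enters the nucleus and binds short DNA elements, mostly in enhancers whose chromatin is already open. MR is a close relative that recognises the same kind of element and can also be activated by glucocorticoids. In ChIP-seq a site is listed when its reads pass the peak caller's threshold against input, so a site that is listed in some replicates and missing from others may be bound weakly, bound in some cultures, or not bound. Positions alone do not separate these.

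The lists differed in length, which sets how many irreproducible sites each could give. After dexamethasone the GR-cell lists ran from 26191 to 37650 peaks and those of the MR/GR cell from 3713 to 10459. After vehicle they ran from 122 to 238 and from 11 to 132. Within a list every peak had the same width (1 peak of 1 list excepted), so width says nothing about a single site. The lists give no heights or scores and the read depth is unknown. MR/GR-cell dexamethasone list 2 stood apart: 67.8% of its peaks lay at reproducible GR-cell sites, against 89.7% for list 1 and 84.7% for list 3. Results that rest on it are given list by list. The labels do not say that the 3 lists of a condition came from separate cultures, so the spread between them may be technical. Genes and sequences are not given for any site, since neither a genome nor an annotation of hg19, the build of the files, was used here.

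The longest list, GR-cell list 1, supplied most irreproducible sites. A peak in list 1 alone accounted for 7860 of them (42.4%), in list 2 alone for 2350 (12.7%) and in list 3 alone for 878 (4.74%), together 11088 sites of 1 list. The other 7430 were sites of 2 lists: 5052 of lists 1 and 2 (27.3% of the irreproducible sites), 1803 of lists 1 and 3 (9.74%) and 575 of lists 2 and 3 (3.11%). The order of the 3 lists by sites found in them alone was the order of their lengths. Seen from each list, irreproducible sites were 39.1% of the peaks of list 1, 25.8% of those of list 2 and 12.4% of those of list 3. List 3 had few peaks of its own, with 87.6% of them at reproducible sites. Without list 1, with sites of exactly 1 of the remaining 2 lists counted, the number of irreproducible sites was 10091.

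**Figure D1:**
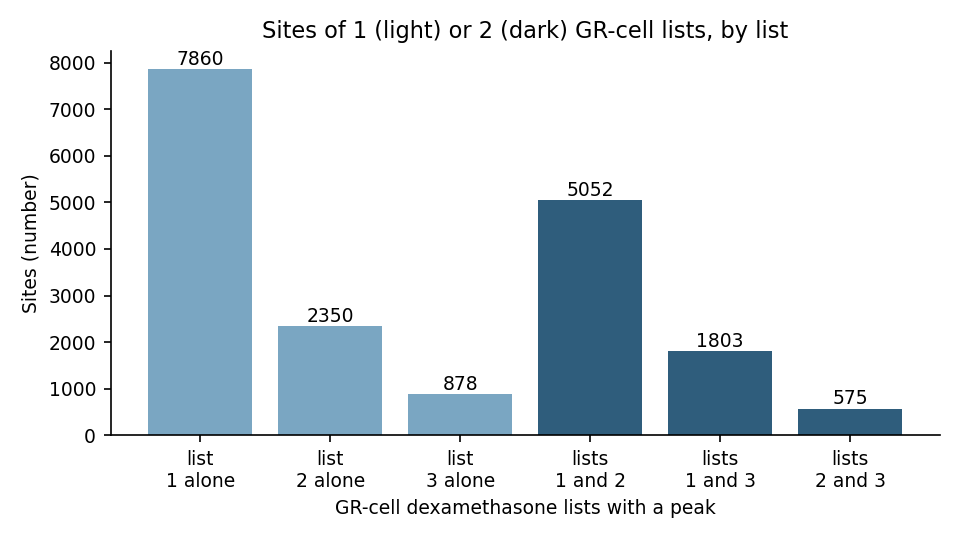
Number of irreproducible sites (vertical axis) by the GR-cell dexamethasone lists in which they had a peak (horizontal axis); light bars are sites of 1 list and dark bars sites of 2 lists. Sites of list 1 alone (7860) and of lists 1 and 2 (5052) are the tallest bars, and sites of lists 2 and 3 (575) the shortest.

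At the edge of the rule, sites of 2 lists can be set beside those of all 3. Peak centres of lists 1 and 2 lay a median of 31 bp apart at sites of those 2 lists and 25 bp apart at reproducible sites. For lists 1 and 3 the medians were 43 bp and 28 bp, and for lists 2 and 3 they were 43 bp and 28 bp. Centres within 100 bp of each other were found at 91.6% of the sites of lists 1 and 2, 83.97% of those of lists 1 and 3 and 84.7% of those of lists 2 and 3, against 93.5% to 94.9% at reproducible sites. Sharing a site requires overlap, so the merging rule and the peak widths largely bound these offsets at both kinds of site. Within that bound, peaks of 2 lists at a site the third did not have scattered somewhat wider than at reproducible sites.

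Few irreproducible sites had a peak of a list that lacked them close by, but the rule fixes part of this. Such a peak overlapping the site would have been merged into it and changed its class. No expected share is given for the gaps that remain. A peak of a missing GR-cell list lay within 100 bp of the edge of 82 of the 18518 sites, within 500 bp of 451 (2.44%) and within 1 kb of 975 (5.27%). The share within 500 bp was 1.35% for the sites of list 1 alone measured to list 3, and 6.78% for sites of lists 2 and 3 measured to list 1, the longest list. The closest pair of peak centres within a list was 699 bp apart in list 1, 687 bp in list 2 and 811 bp in list 3. Of the irreproducible sites without a peak in list 3, 153 (1.00%) lay nearer to the centre of a list 3 peak than that list's closest pair. The figures were 101 (2.66%) for list 1 and 90 (0.854%) for list 2. No 2 peaks of the same GR-cell list fell into 1 site.

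By the median, irreproducible sites lay slightly farther from reproducible sites than these lay from one another, but within 1 kb the order turned. The gap from an irreproducible site to the nearest reproducible site had a median of 33.7 kb, with 10% of sites within 4.34 kb and 90% within 162 kb. From a reproducible site to the next reproducible site the median was 26.8 kb, with the same percentiles at 4.39 kb and 141 kb. A reproducible site lay within 1 kb of 531 irreproducible sites (2.87%), within 10 kb of 4208 (22.7%), within 50 kb of 11209 (60.5%) and within 100 kb of 14711 (79.4%). The corresponding shares for reproducible sites were 2.08%, 25.6%, 66.9% and 83.7%. Within 500 bp the shares were 0.859% of irreproducible and 0.113% of reproducible sites. The smallest spacing of peaks within a list also limits how near reproducible sites lie to one another. These distances depend on how densely each set covers the genome, and they come from the lists that chose the sites, so no test is given.

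The distance varied with the list of origin. Sites of list 3 alone were the farthest out, with a median of 39.99 kb and 16.5% within 10 kb of a reproducible site. Sites of lists 1 and 2 were the nearest, with a median of 29.9 kb and 25.8% within 10 kb. Between them lay list 1 alone (34.5 kb), list 2 alone (34.8 kb), lists 1 and 3 (36.8 kb) and lists 2 and 3 (32.2 kb). The shares within 10 kb were 23.3%, 24.2% and 19.3% over the irreproducible sites with a peak in list 1, 2 and 3, a mean of 22.3% ± 2.64 (SD, n = 3 lists, which share sites). Within 500 bp of a reproducible site lay 79 sites of lists 1 and 2 (1.56%) and none of the 1803 sites of lists 1 and 3. Other sites with a list 3 peak were rare there too. The shares were 0.114% for list 3 alone, 0.348% for lists 2 and 3, and 0.113% for reproducible sites. Every reproducible site holds a list 3 peak, and the closest peak centres of list 3 were 811 bp apart, the farthest of the 3 lists. Its peaks are also the widest, at 424 bp. The part of peak width and spacing in that contrast was not tested.

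**Figure D2:**
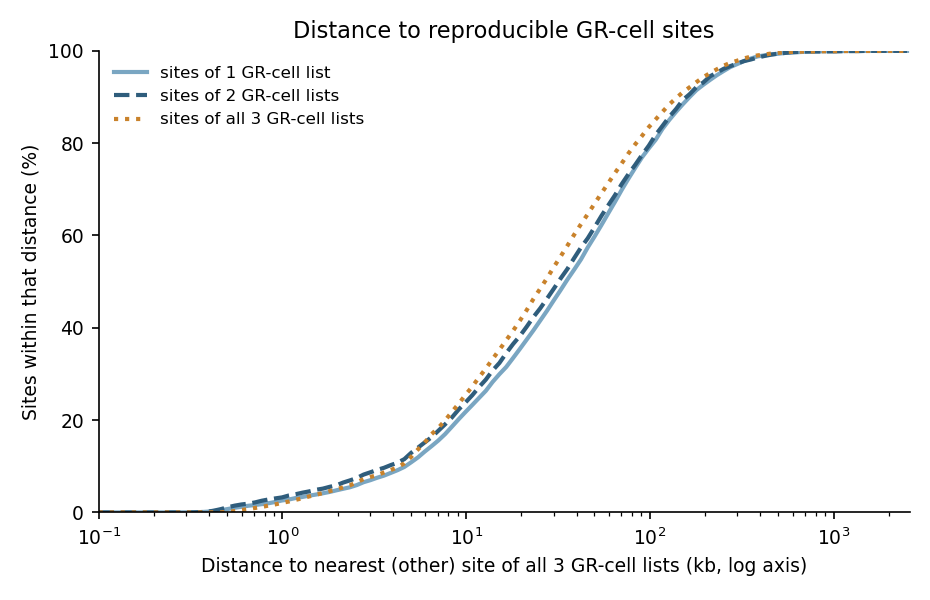
Percentage of sites (vertical axis) within a given distance in kb (horizontal axis, log scale) of the nearest reproducible site, for sites of 1 GR-cell list, of 2 lists, and of all 3 lists measured to the next such site. The curves run close together: 21.9%, 24.0% and 25.6% of the sites lie within 10 kb.

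Some irreproducible sites sat inside clusters of reproducible ones, while others were far from any. There were 367 with a reproducible site within 10 kb on both sides, and 48 with at least 3 reproducible sites within 10 kb. The site with most, 4, was on chromosome 4 at 9999700 to 10000065 (hg19, counted from 1), a peak of list 2 alone. It was followed by chromosome 1 at 53136197 to 53136567, chromosome 20 at 46333904 to 46334282, chromosome 1 at 160092842 to 160093265 and chromosome 13 at 110661198 to 110661584, each with 3. At the other end, 3802 irreproducible sites (20.5%) were more than 100 kb from a reproducible site, and 18 more than 1 Mb. Of the 3802, 15.9% had another irreproducible site within 10 kb, against 19.1% of all irreproducible sites. The most remote was a peak of list 2 alone on chromosome 13 at 63442006 to 63442371, 2272 kb from the nearest reproducible site. Next came a pair on chromosome 9 at 45727755 to 45728120 and 45720490 to 45720855, 1459 and 1452 kb away, then chromosome 13 at 64429504 to 64429889 (1406 kb) and chromosome X at 144816557 to 144817099 (1401 kb). All 5 remote sites were without a peak in any MR/GR-cell or vehicle list.

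Over chromosomes, the irreproducible share of GR-cell sites ranged from 41.2% to 49.8%. It was highest on chromosome 19 with 405 of 814 sites (49.8%, Wilson 95% interval 46.3 to 53.2), then chromosome 21 (48.1%) and chromosome X (47.6%). It was lowest on chromosome 22 with 307 of 746 (41.2%, 37.7 to 44.7), chromosome 20 (41.8%) and chromosome 18 (42.1%). Counting error is all that these intervals cover. The lists did not all give the same picture: on chromosome 13 the irreproducible share of peaks was the lowest of 23 chromosomes in list 1 (35.8%) and the third highest in list 3 (15.7%). On chromosome X it was 39.4%, 29.4% and 17.7% in lists 1, 2 and 3, which ranked 11, 2 and 1. On chromosome 22 it was 35.9%, 24.4% and 8.35%, in the lower ranks of every list. Irreproducible sites were also nearest to reproducible ones on chromosome 22, with a median of 20.8 kb, and farthest on chromosome X, with 47.1 kb.

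At a scale of 1 Mb, irreproducible sites were found almost wherever reproducible ones were. Of 2860 windows with a GR-cell site, 2808 held an irreproducible site and 2815 a reproducible one, and the median was 6 irreproducible sites in a window that had any. Over these 2860 windows the numbers of the 2 kinds had a Pearson correlation of 0.54 and a Spearman correlation of 0.543, a description only, since all windows share the same 3 lists. The window with most irreproducible sites was chromosome 12 from 131 to 132 Mb, with 22 beside 22 reproducible sites. It was followed by chromosome 16 from 85 to 86 Mb (20 beside 24), chromosome 7 from 157 to 158 Mb (20 beside 23), chromosome 5 from 149 to 150 Mb (20 beside 14) and chromosome 15 from 71 to 72 Mb (19 beside 22). In 45 windows, holding 123 irreproducible sites, there was no reproducible site at all. The fullest of these were chromosome 2 from 184 to 185 Mb with 10 irreproducible sites and chromosome 7 from 72 to 73 Mb and chromosome 21 from 15 to 16 Mb with 8 each.

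The first independent readout was GR binding in dexamethasone-treated MR/GR cells. Irreproducible sites were seldom listed there. MR/GR-cell list 1 had a peak at 217 of the 18518 sites (1.17%), list 2 at 1329 (7.18%) and list 3 at 566 (3.06%), a mean of 3.80% ± 3.07 (SD, n = 3 lists). At reproducible sites the shares were 14.5%, 30.9% and 24.6%, a mean of 23.3% ± 8.27. The difference was -19.5 percentage points (SD 5.48 over 3 lists), with the lower share at irreproducible sites in each MR/GR-cell list, and an exact two-sided sign-flip permutation test over lists returned p = 0.25, below which 3 lists cannot go. With a peak in at least 1 MR/GR-cell list there were 1500 irreproducible sites (8.10%), against 22.6% of all sites with a GR-cell peak. In at least 2 lists there were 464 (2.51%, Wilson 95% interval 2.29 to 2.74), against 13.6%, and in all 3 there were 148 (0.799%), against 7.64%. Without MR/GR-cell list 2 the mean share fell to 2.11%.

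Within the irreproducible sites the share also went with the number of GR-cell lists. Sites of 2 lists were held by MR/GR-cell lists 1, 2 and 3 in 1.76%, 8.44% and 4.23% of cases, and sites of 1 list in 0.776%, 6.33% and 2.27%. The difference was 1.68 points (SD 0.607, n = 3 lists) with the same sign in each list, exact sign-flip permutation p = 0.25, again the smallest possible. A far larger step separated sites of 2 lists from reproducible ones, of which 22.5% were held by at least 2 MR/GR-cell lists, against 3.47% of sites of 2 lists and 1.86% of sites of 1 list.

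Which GR-cell lists a site came from went with how often the MR/GR cell had it. Sites of lists 1 and 3 had the highest share of the 6 combinations in every MR/GR-cell list, at 1.94%, 14.3% and 5.49%. Sites of list 2 alone had the lowest in every list, at 0.383%, 2.94% and 1.23%. Sites of lists 2 and 3 were next lowest, at 0.522%, 4.35% and 1.74%. They lay below 2 kinds of 1-list site in every MR/GR-cell list. These were list 1 alone (0.903%, 7.37% and 2.56%) and list 3 alone (0.683%, 6.15% and 2.51%). Sites of lists 1 and 2 had 1.84%, 6.81% and 4.06%, which was below list 1 alone in MR/GR-cell list 2 only. Their gap to sites of lists 1 and 3 was 0.10, 7.50 and 1.43 points in MR/GR-cell lists 1, 2 and 3. That mean gap of 3.01 points (SD 3.94, exact sign-flip permutation p = 0.25) rested on MR/GR-cell list 2 and was 0.767 without it. The contrast was picked after these same shares had been seen, so its p is no independent support. All 3 MR/GR-cell lists had their lowest share at sites of GR-cell list 2 alone, so these shares cannot show whether list numbers pair the lines.

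**Figure D3:**
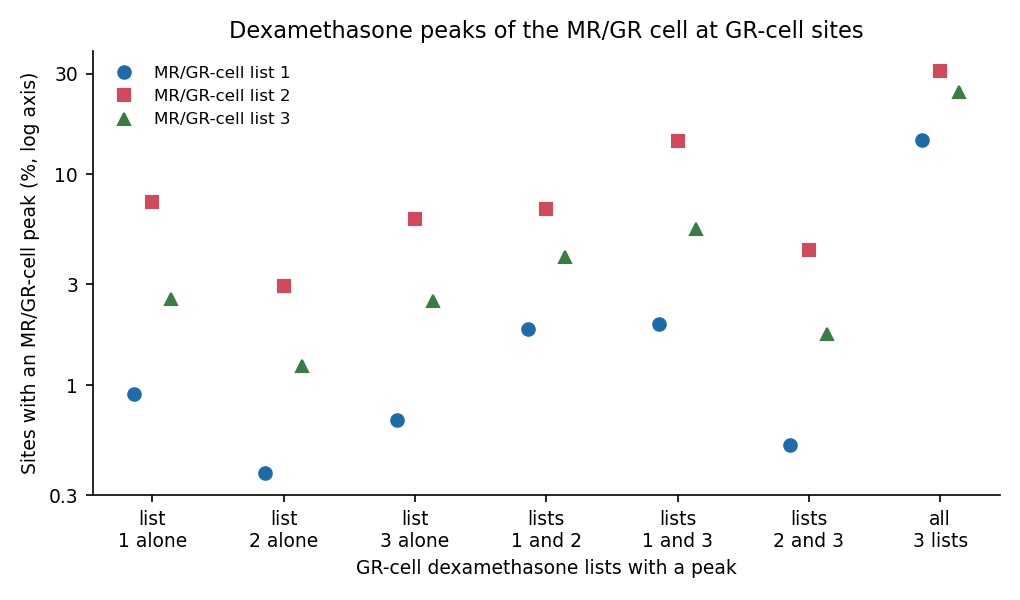
Percentage of sites with a peak (vertical axis, log scale) in each of the 3 dexamethasone lists of the MR/GR cell, for each combination of GR-cell lists (horizontal axis). Sites of all 3 GR-cell lists lie at 14.5% to 30.9%, above the irreproducible sites in each MR/GR-cell list; among the latter, sites of lists 1 and 3 are highest and sites of list 2 alone lowest.

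Irreproducible sites close to a reproducible site were held more often by the MR/GR cell than distant ones. Within 10 kb of a reproducible site, MR/GR-cell lists 1, 2 and 3 had peaks at 2.07%, 9.24% and 4.21% of irreproducible sites. Farther out the shares were 0.909%, 6.57% and 2.72%. The difference was 1.77 points (SD 0.797, n = 3 lists), positive in each list, with an exact sign-flip permutation p = 0.25, the smallest possible. It was 0.99 points without GR-cell list 3, 2.70 points with a limit of 5 kb and 1.16 points with one of 50 kb. The share held by at least 2 MR/GR-cell lists stepped down with distance. It was 6.59% within 1 kb (35 of 531 sites, Wilson 95% interval 4.78 to 9.03) and 3.37% from 1 to 10 kb. It was 2.43% from 10 to 50 kb, 2.17% from 50 to 100 kb and 1.55% beyond 100 kb (59 of 3802, 1.21 to 1.996). Reproducible sites showed a gradient too, from 27.7% within 1 kb of another reproducible site to 16.6% beyond 100 kb.

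The neighbour's own binding in the MR/GR cell went with that of the irreproducible site. Of the 4208 irreproducible sites within 10 kb of a reproducible site, 976 had a nearest reproducible site held by at least 2 MR/GR-cell lists, and 76 of these 976 (7.79%, Wilson 95% interval 6.27 to 9.64) were themselves held by at least 2. Where the nearest reproducible site was in no MR/GR-cell list, the share was 2.24% (60 of 2674, 1.75 to 2.88). List by list the shares were 5.12%, 15.2% and 8.50% beside a held neighbour and 0.972%, 7.18% and 2.36% beside one that was in no list. Neighbouring sites come from the same lists and the same stretch of DNA and are not independent.

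Over chromosomes, the irreproducible sites held by at least 2 MR/GR-cell lists ranged from 5 of 598 on chromosome X (0.836%) to 21 of 467 on chromosome 20 (4.50%), with 2.51% over the genome. After chromosome 20 came chromosome 8 (3.91%) and chromosome 15 (3.80%). The next lowest after X were chromosome 18 (1.37%) and chromosome 7 (1.497%). Each value rests on at most 53 held sites.

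A small set was irreproducible in the GR cell yet called in every list of the MR/GR cell. These were 53 sites of 1 GR-cell list (0.478% of such sites) and 95 of 2 lists (1.28%), against 7.64% of all sites with a GR-cell peak. Among the former, ranked by vehicle lists and then by dexamethasone peaks within 10 kb, a site of list 3 alone led, on chromosome 8 at 37495411 to 37495834. It also had a peak in 1 MR/GR-cell vehicle list and lay 2.55 kb from a reproducible site. When peaks up to 100 bp apart were joined it belonged to 2 GR-cell lists. The next were chromosome 2 at 28866713 to 28867111, with 3 reproducible sites within 10 kb, chromosome 14 at 69017136 to 69017489, chromosome 6 at 74413857 to 74414307 and chromosome 22 at 23648081 to 23648434. The ranking favours crowded places, and all 5 lay within 10 kb of a reproducible site. So did 17 of the 53 (32.1%), against 21.9% of all sites of 1 GR-cell list. Among sites of 2 lists, chromosome 17 at 15824015 to 15824579, of lists 1 and 3, led with a peak in 1 GR-cell vehicle list and stood 42.0 kb from a reproducible site. The next 4, all of lists 1 and 2, were ranked by dexamethasone peaks within 10 kb. Such counts include the peaks of the site itself. They were chromosome 5 at 16889727 to 16890112 with 22 dexamethasone peaks within 10 kb, and, with 20 each, chromosome 1 at 53136197 to 53136567 and at 95018828 to 95019224, and chromosome 20 at 46333904 to 46334282. Of all 95, 44 (46.3%) lay within 10 kb of a reproducible site, against 24.0% of all sites of 2 GR-cell lists. The median over the 95 was 8 dexamethasone peaks within 10 kb. That includes each site's own peaks in 2 GR-cell and 3 MR/GR-cell lists, so fewer lay around it.

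The other independent readout was the few peaks called without ligand. GR-cell vehicle lists 1, 2 and 3 had 41 of 122, 73 of 238 and 99 of 228 peaks at irreproducible sites, or 33.6%, 30.7% and 43.4%. MR/GR-cell vehicle lists had 49 of 132, 1 of 11 and 13 of 40, or 37.1%, 9.09% and 32.5%. The shares of the lines overlapped, with means of 35.9% ± 6.68 and 26.2% ± 15.0 (SD, n = 3 lists each), and the difference of 9.66 points was not detectable (exact permutation p = 0.5, two-sided, smallest possible 0.1). It was 1.09 points without MR/GR-cell vehicle list 2, which holds 11 peaks. Counted by site, 181 irreproducible sites (0.977%, Wilson 95% interval 0.846 to 1.13) had a peak in at least 1 GR-cell vehicle list, against 0.789% of all sites with a GR-cell peak and 0.637% of reproducible sites (0.542 to 0.748). Of the single lists, vehicle list 3 had the largest gap, with 0.535% of irreproducible and 0.353% of reproducible sites. List 1 had 0.221% and 0.235%, and list 2 had 0.394% and 0.379%. A count over at least 1 list also depends on how many sites the lists share. With a peak required in at least 2 GR-cell vehicle lists the order turned, to 28 irreproducible sites (0.151%, Wilson 95% interval 0.105 to 0.218) and 56 reproducible ones (0.244%, 0.188 to 0.317), against 0.203% of all sites with a GR-cell peak. In at least 1 MR/GR-cell vehicle list there were 55 irreproducible sites (0.297%, Wilson 95% interval 0.228 to 0.386). That compared with 0.198% of all sites with a GR-cell peak and 0.118% of reproducible ones (0.0809 to 0.171). MR/GR-cell vehicle list 1 had a peak at 49 irreproducible sites, list 2 at 1 and list 3 at 13. In at least 2 of these lists there were 8 irreproducible sites (0.0432%) and 6 reproducible ones (0.0262%).

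Among MR/GR-cell peaks at GR-cell sites, the share at irreproducible sites was higher after vehicle than after dexamethasone in these lists. Of the dexamethasone peaks that lay at any GR-cell site, 6.12%, 15.8% and 9.11% in lists 1, 2 and 3 lay at irreproducible sites. Of the vehicle peaks of the same line, 65.3% (49 of 75, Wilson 95% interval 54.1 to 75.1), 50% (1 of 2) and 65% (13 of 20, 43.3 to 81.9) did. The 3 vehicle lists lay above the 3 dexamethasone lists without overlap, a difference of 49.8 points (two-sided exact permutation p = 0.1, the lowest that 3 lists against 3 can reach). It was 22.6 points (exact permutation p = 0.4) when GR-cell list 1 was left out of the definition of sites. Vehicle list 2 lay above the dexamethasone lists through 1 of 2 peaks only. Without that list the difference was 54.8 points (exact permutation p = 0.2, the lowest possible there). In the GR cell the vehicle shares were 43.2%, 45.6% and 55.0%. Irreproducible sites make up 44.7% of all GR-cell sites, which lies within the Wilson 95% intervals of lists 1 and 2 and below that of list 3 (47.7 to 62.1). For the MR/GR-cell vehicle lists, 44.7% lies below the interval of list 1 and within those of list 2 (9.45 to 90.5) and list 3. The GR-cell and MR/GR-cell vehicle lists differed by -12.2 points on this measure (exact permutation p = 0.2, two-sided), with MR/GR-cell list 2 resting on 2 peaks. This measure was chosen after the vehicle counts had been seen. The Wilson intervals cover counting error only, with single peaks as the unit, so they give no test against 44.7%.

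**Figure D4:**
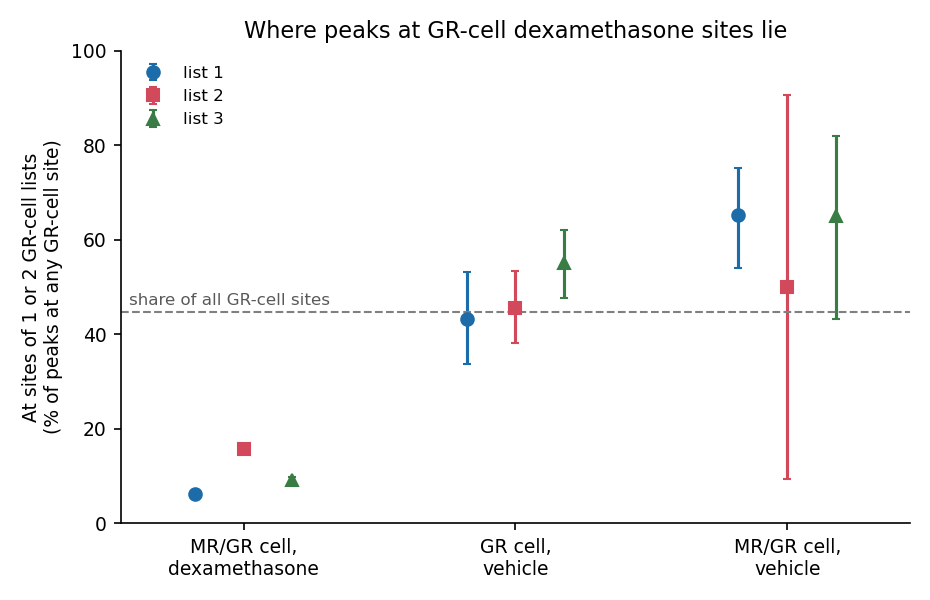
Of the peaks of each list that lie at any GR-cell dexamethasone site, the percentage at irreproducible sites (vertical axis), with Wilson 95% intervals as bars, for 3 lists of each of 3 conditions (horizontal axis); the dashed line is the share of irreproducible sites among all GR-cell sites (44.7%). Dexamethasone lists of the MR/GR cell lie at 6.12% to 15.8% and vehicle lists of either line at 43.2% to 65.3%.

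Vehicle peaks of the GR cell were not spread evenly over the irreproducible sites. Sites of lists 1 and 3 carried them most often, with vehicle lists 1, 2 and 3 having peaks at 0.555%, 1.16% and 1.109% of these sites (10, 21 and 20 of 1803). At sites of lists 1 and 2 the shares were 0.198%, 0.297% and 0.356% (10, 15 and 18 of 5052). The difference was 0.66 points (SD 0.268, n = 3 lists) and positive in each vehicle list, with an exact sign-flip permutation p = 0.25, the smallest possible, for a contrast chosen after seeing the data. Sites of list 1 alone had 0.216%, 0.433% and 0.70%, and sites of list 2 alone 0.0851%, 0.0426% and 0.0851% (2, 1 and 2 of 2350). Over the 3 vehicle lists 42 of 1803 sites of lists 1 and 3 (2.33%, Wilson 95% interval 1.73 to 3.13) and 5 of 2350 sites of list 2 alone (0.213%, 0.0909 to 0.497) had a vehicle peak, against 0.637% of reproducible sites. In the MR/GR-cell vehicle lists the gap between sites of lists 1 and 3 and of lists 1 and 2 was 0.119, 0 and 0.0318 points (exact sign-flip permutation p = 0.5), from at most 8 peaks per list and combination.

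**Figure D5:**
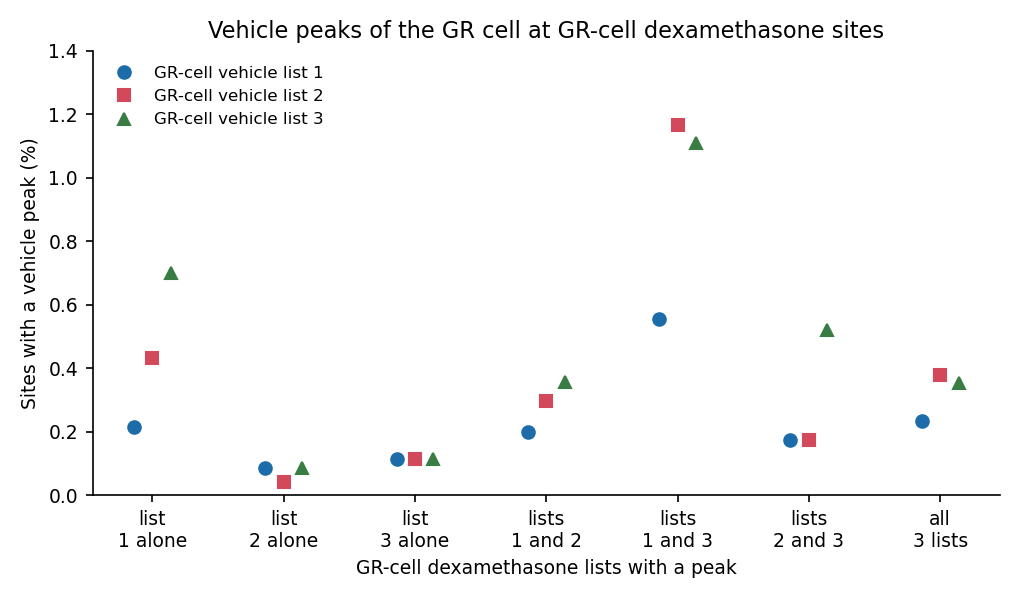
Percentage of GR-cell dexamethasone sites with a peak in each of the 3 vehicle lists of the GR cell (vertical axis), by the GR-cell dexamethasone lists in which the site was called (horizontal axis). Sites of lists 1 and 3 are highest in each vehicle list, at 0.555% to 1.16%, and sites of list 2 alone lowest, at 0.0426% to 0.0851%.

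The irreproducible sites with a GR-cell vehicle peak differed in which MR/GR-cell dexamethasone list also had them. List 2 had a peak at 17.1% of these 181 sites, against 7.08% of the 18337 without a vehicle peak. Lists 1 and 3 had 0.552% and 2.76% of them, against 1.18% and 3.06%. By presence in at least 2 MR/GR-cell lists, 4 of the 181 were held (2.21%, Wilson 95% interval 0.863 to 5.54) and 2.51% of the others, so no difference was detectable by that count. With every site that had a vehicle peak in either line removed, MR/GR-cell list 2 had 14.1% of the sites of lists 1 and 3 and 6.65% of those of lists 1 and 2.

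Of the 28 irreproducible sites in at least 2 GR-cell vehicle lists, 12 were of list 1 alone, 7 of lists 1 and 2, and 9 of lists 1 and 3. All 28 had a peak in dexamethasone list 1, as did 79.5% of all irreproducible sites, and 3 of them in an MR/GR-cell dexamethasone list. In 4 (0.0216%, against 20 reproducible sites or 0.0872%, and 0.0579% of all sites with a GR-cell peak) the peak was called in all 3 vehicle lists but not in all 3 dexamethasone lists of the same cells. They were chromosome 8 at 80942227 to 80942580, chromosome 3 at 156892581 to 156892934 and chromosome 8 at 66546450 to 66546803, each of list 1 alone, and chromosome 22 at 19466811 to 19467188, of lists 1 and 2. None of the 4 had a peak in an MR/GR-cell list, with or without ligand. The first lay 7.35 kb from a reproducible site and the others 21.5, 124 and 75.9 kb. The fifth in rank was chromosome 20 at 34638688 to 34639126, in 2 vehicle lists, of lists 1 and 2 and 103 kb from a reproducible site.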

How the data were processed

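The 12 peak lists that the authors deposited give only the chromosome, start and end of each peak. Per the submitters' processing notes, the build was hg19, and the tools were HOMER 4.8.3, Picard 1.115, SAMtools 1.3.1, Bowtie and Trim Galore 0.4, with neither roles nor the calling threshold given. By their names, the lists were called against input, with 3 numbered lists per sample, which served as replicates.

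Peaks overlapping by at least 1 bp were merged over the 6 dexamethasone lists, and the 43713 sites were identical to those of bedtools 2.31.1. Distances run from edge to edge. A vehicle peak was assigned to the first site it overlapped. Shares have Wilson 95% intervals that cover counting error only, and differences over lists have exact permutation or sign-flip tests, two-sided. The software was Python 3.11.15 with SciPy 1.17.1, pandas 2.3.3, numpy 2.4.6 and matplotlib 3.10.9. Merging and distances were tested on simulated data made for the dexamethasone lists, where 100% of the GR-cell list combinations at 20000 simulated sites and 100% of 500 distances were right. The simulated sites were spaced wider and their peak centres scattered less than many real ones. That test therefore checks the code and not how crowded real peaks merge. Sites, classes and tests were chosen with earlier results of these data known. Named sites are at most 5 per class: held by all 3 MR/GR-cell lists (1 or 2 GR-cell lists), in at least 2 GR-cell vehicle lists, farthest from a reproducible site, with most reproducible sites within 10 kb, and the fullest 1 Mb windows. Alternatives were other merging gaps, peaks of 200 bp, the main chromosomes, the GR-cell lists alone, other distance limits, leaving out each list, and a block for list number.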

Additional observations from a re-analysis of the deposited data

How the results depend on the processing

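Of 141 alternatives, 136 kept the direction of a difference, the size of a share within its spread over lists, or a count within 1.5 times; 45 of the 46 for named sites did so. This criterion is loose, since a difference needed only to keep its sign. A vehicle difference of 9.66 points that fell to 1.09 counted as kept, as did 49.8 points that fell to 22.6. A share of 3.80% that fell to 2.11% also counted, as its SD was 3.07. Exact tests over 3 lists cannot pass 0.05, so stability is read from size and direction. The share of irreproducible sites near a reproducible site was 11.2% with a limit of 5 kb and 60.3% with 50 kb, by construction, and 22.1% to 26.1% without 1 GR-cell list, highest without list 3. Leaving out 1 GR-cell list gave 10091 to 14373 irreproducible sites, lowest without list 1. The labels do not give list numbers. Among single-list sites, every MR/GR-cell list had its highest share at GR-cell list 1 alone and its lowest at list 2 alone. These shares therefore could not show whether list numbers pair the lines. With list number as a replicate block the vehicle difference between lines stayed 9.66 points (exact sign-flip permutation p = 0.5). With a GR-cell list left out, sites of 2 lists could not be compared with sites of 1. Unknown read depth limits every absence: a site that is not listed may lie under the threshold.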
